A study of Mus musculus with 16 samples.

Results

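H3K9me3 and H3K9me2 are both marks of repressed chromatin, and many H3K9me3 peaks of small intestinal crypts lay inside regions called for H3K9me2. The H3K9me3 peaks described here are those that lay fully inside an H3K9me2 region, with both ends of the peak within the ends of the region on the same chromosome. They numbered 124720 of 212313 H3K9me3 peaks (58.7%) and sat in 21104 of 47065 H3K9me2 regions (44.8%), which are called host regions below. They were set against the 67487 H3K9me3 peaks (31.8%) that touched no H3K9me2 region, called outside peaks. The other 20106 peaks (9.47%) overlapped a region in part. The membership rule uses positions only and no measured change between genotypes, though it was set with earlier results of these data known.

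The series profiled whole crypt isolates from the small intestine of C57BL/6 mice, male according to the methods of the study, by ChIP-seq. Wild type (WT) mice were compared with mice (KO) in which a floxed Smarcad1 was deleted by the Vil-cre transgene, a Cre recombinase under the Villin promoter. For each of the marks there were 3 ChIP libraries of WT, 3 of KO and 1 input of each genotype (16 libraries), and the ages of these mice are not given in the sources used here. The floxed allele came from a single targeted embryonic stem cell clone, the Villin promoter limits deletion to the epithelium, and a crypt isolate can hold other cells in which the gene stays intact. Neither table had a peak or region over Smarcad1, so these tables hold no check of the deletion.

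H3K9me2 is laid down mainly by Ehmt1 and Ehmt2 and forms wide domains over silent parts of chromosome arms. H3K9me3 is laid down by Setdb1, often recruited to transposable elements by KRAB zinc finger proteins through Trim28, and by Suv39h1 and Suv39h2 at constitutive heterochromatin. HP1 proteins bind both marks. Smarcad1 is an ATP-dependent chromatin remodeling factor of the conserved Fun30 and Etl1 family, with a known part in keeping heterochromatin through DNA replication.

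The sequence at the centre of a peak shows part of the DNA over which a gain or loss within an H3K9me2 region was measured. The 300 bases around the centre of 5 inside peaks are printed from the plus strand of GRCm38.p6, with repeat-masked bases of the RefSeq assembly in lower case and all other bases in capitals. The first 3 are the inside peaks of smallest p that were lower in KO near a named gene, at Gm28347 (chr19:11031001-11031300), Gm39132 (chr8:11882551-11882850) and 1600002D24Rik (chr16:95884576-95884875). The next 2 are those of smallest p that were higher in KO, at Dapk1 (chr13:60652651-60652950) and Kcnt2 (chr1:140354626-140354925).
Gm28347: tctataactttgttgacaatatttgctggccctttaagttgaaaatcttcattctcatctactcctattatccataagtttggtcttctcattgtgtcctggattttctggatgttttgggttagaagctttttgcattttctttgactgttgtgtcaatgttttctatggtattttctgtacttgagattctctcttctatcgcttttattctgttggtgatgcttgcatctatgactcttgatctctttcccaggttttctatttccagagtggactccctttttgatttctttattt
Gm39132: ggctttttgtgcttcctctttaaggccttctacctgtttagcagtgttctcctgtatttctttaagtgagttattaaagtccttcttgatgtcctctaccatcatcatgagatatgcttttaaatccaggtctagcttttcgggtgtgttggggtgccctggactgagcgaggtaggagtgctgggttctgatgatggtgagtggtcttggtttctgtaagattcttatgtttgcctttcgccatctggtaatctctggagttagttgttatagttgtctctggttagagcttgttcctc
1600002D24Rik: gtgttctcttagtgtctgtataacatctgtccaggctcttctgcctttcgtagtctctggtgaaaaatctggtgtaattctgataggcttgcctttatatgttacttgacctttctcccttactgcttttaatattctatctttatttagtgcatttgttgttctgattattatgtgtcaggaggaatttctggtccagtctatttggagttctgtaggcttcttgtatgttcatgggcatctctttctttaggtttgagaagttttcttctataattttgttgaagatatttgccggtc
Dapk1: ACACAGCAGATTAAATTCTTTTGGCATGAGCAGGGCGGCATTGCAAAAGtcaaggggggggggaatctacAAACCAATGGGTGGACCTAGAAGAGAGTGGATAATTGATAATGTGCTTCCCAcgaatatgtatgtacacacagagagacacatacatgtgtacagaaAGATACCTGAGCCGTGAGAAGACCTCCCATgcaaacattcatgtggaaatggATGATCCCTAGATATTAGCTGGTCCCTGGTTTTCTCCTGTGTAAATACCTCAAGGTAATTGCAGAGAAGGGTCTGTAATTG
Kcnt2: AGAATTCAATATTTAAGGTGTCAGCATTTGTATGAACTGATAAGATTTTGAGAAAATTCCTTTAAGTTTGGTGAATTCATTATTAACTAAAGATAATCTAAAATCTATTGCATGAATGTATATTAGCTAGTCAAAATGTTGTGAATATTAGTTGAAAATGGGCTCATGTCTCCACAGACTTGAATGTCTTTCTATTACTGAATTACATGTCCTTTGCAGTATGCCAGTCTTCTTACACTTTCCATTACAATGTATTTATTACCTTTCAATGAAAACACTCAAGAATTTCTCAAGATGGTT

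H3K9me3 was measured over whole peaks and not over these windows. In the 3 peaks lower in KO all 300 bases of the printed window were repeat-masked, and over the whole peak the share was 66.0% at Gm28347, 68.2% at Gm39132 and 94.1% at 1600002D24Rik. In the peaks higher in KO the window held 0 repeat-masked bases at Kcnt2 and 88 at Dapk1, and the whole peaks were repeat-masked over 24.7% and 27.1%. Repeat content also differed over all called inside peaks. The median repeat-masked share of a peak was 59.0% for the inside peaks lower in KO, 20.7% for those higher in KO and 32.5% for inside peaks not called. Outside peaks showed the same order, at 47.8%, 16.6% and 36.8%. Reads that map to several places were filtered out by mapping quality, so repeats are counted less well than other sequence.

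H3K9me2 regions covered 28.3% of the assembled chromosomes, 773 Mb of 2726 Mb, and held 65.0% of the bases in H3K9me3 peaks. Inside peaks were therefore dense, at 161 per Mb of H3K9me2 region, against 34.6 outside peaks per Mb of the remaining genome. A host region was 19350 bp wide at the median and held a median of 3 inside peaks, with an interquartile range of 1 to 8. In 5530 hosts (26.2%) the inside peak was the only one, while 4030 hosts with 10 or more held 68881 inside peaks (55.2%). H3K9me2 regions that touched no H3K9me3 peak were narrower, with a median width of 2700 bp. A host was covered to a median of 40.3% by its inside peaks, so both marks did not fill the same bases. A region can group several separately called H3K9me2 peaks, a median of 4 per host, so an inside peak may lie between them. Inside peaks held 50.5% of the H3K9me3 ChIP reads in peaks in WT (mean of 3 libraries) and 54.8% of the WT input reads in peaks.

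On each of the 19 autosomes more than 50% of the H3K9me3 peaks were inside peaks. The share ran from 52.5% on chromosome 14 to 68.1% on chromosome 18, and chromosomes 9 (67.5%) and 19 (66.5%) were also high. The sex chromosomes stood apart. Only 28 of 2526 peaks on the X chromosome (1.11%) and 0 of 1064 on the Y chromosome lay inside an H3K9me2 region. H3K9me2 regions covered 1.19% of the X chromosome and 22.8% to 40.3% of each autosome. The WT input held 14.4 reads per kb of H3K9me3 peak on X and 13.3 on Y, against 20.4 to 25.04 on the autosomes, and the part of this lower coverage in the region calls was not tested.

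**Figure D1:**
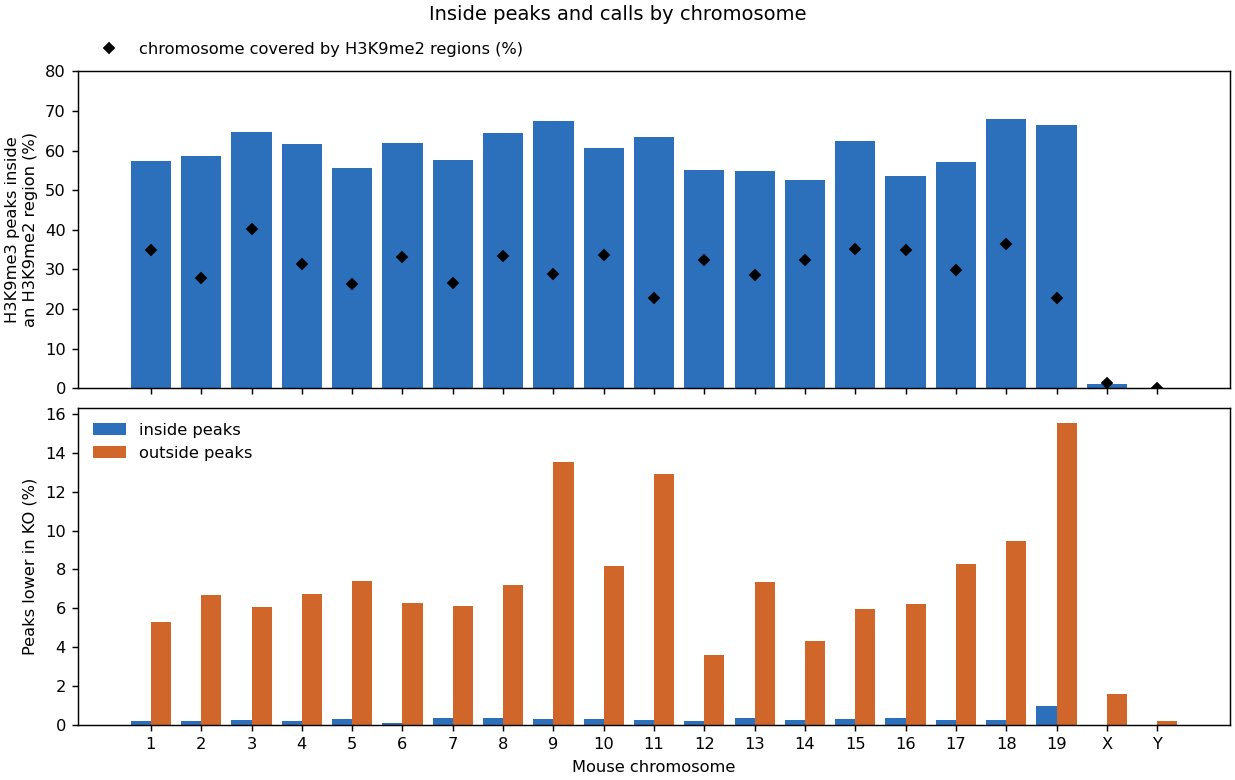
Upper panel, percent of the H3K9me3 peaks of each mouse chromosome that lay inside an H3K9me2 region (bars) and percent of the chromosome covered by H3K9me2 regions (diamonds); lower panel, percent of inside and of outside peaks lower in KO. The autosomes hold 52.5% to 68.1% inside peaks and X holds 1.11%, and on all 19 autosomes the bar for outside peaks is above the bar for inside peaks.

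In size and composition inside peaks were close to outside peaks. The median width was 1350 bp inside and 1200 bp outside, and 420 inside peaks (0.337%) reached 10 kb. The widest inside peak spanned 54900 bp. Median GC content was 39.5% inside and 39.8% outside, and the median number of CpG dinucleotides per kb was 4.95 and 5.83. Inside peaks were less repeat-rich (median 32.5% against 37.7%). Fewer of them overlapped an exon (5.73% against 7.72%) or a transcription start site (2.34% against 2.82%). In the deposited annotation 28.7% of inside peaks overlapped a gene and 64.8% had none within 5 kb, against 30.5% and 60.3% outside.

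Inside peaks were most numerous at a few genes. Lsamp, a cell adhesion protein of the IgLON family, had 446 inside peaks of 607 H3K9me3 peaks. Lrp1b, a large receptor of the LDL receptor family, had 404 of 670, and Csmd1, a complement-regulating membrane protein, had 373 of 461. Cntnap2, a neurexin family protein, had 337 of 446 and Pcdh15, a protocadherin of hair cells, 292 of 450. Opcml, an IgLON protein like Lsamp, had 291 of 319 (91.2%). The scaffold gene Magi2 followed with 289 of 382 and the sarcoglycan genes Sgcd and Sgcz had 284 of 334 and 252 of 367. Among all genes, 6031 had an inside peak within 5 kb. Gene length was not held constant in these counts.

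The 6 H3K9me3 ChIP libraries held 7066538 to 11829875 reads in peaks, recovered from the deposited values, and the median inside peak had 23 to 37 reads per library. KO replicate 1 was the shallowest. Counts over inside peaks differed between libraries only slightly more than counting error, with a chi-square per degree of freedom between 1.08 and 1.24 for every pair of libraries. The H3K9me2 libraries held 18986927 to 39080740 reads in regions, and over host regions they differed by more than counting error, with the same measure between 1.38 and 7.91 over all pairs. The study calls the samples biological replicates, while the labels do not tie them to single animals.

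Loss of H3K9me3 in the KO was rare inside H3K9me2 regions. Of the inside peaks, 326 (0.261%) were lower and 185 (0.148%) were higher in KO, in a limma fit over all 212313 peaks with a Benjamini-Hochberg adjusted p under 0.05. Over all peaks the same rule called 2.46% lower and 0.252% higher. Of outside peaks, 4458 (6.61%) were lower and 295 (0.437%) were higher. The share of lower peaks was therefore 25.3 times as large outside as inside, and the share of higher peaks 2.95 times. Inside peaks supplied 6.24% of all lower calls and 34.5% of all higher calls, though they were 58.7% of the peaks. These counts depended on the variance model, since limma without a mean-variance trend called 0 inside and 84 outside peaks lower. On recovered reads edgeR called 427 inside peaks lower and 204 higher, and DESeq2 called 100 lower and 11 higher. Under DESeq2 the share lower was 36.8 times and the share higher 17.6 times as large outside as inside, and inside peaks supplied 8.73% of the higher calls. The counts also depended on single libraries. Lower inside peaks numbered 177, 215 and 173 without WT replicate 1, 2 or 3, and higher ones 120 without WT replicate 3 and 102, 120 and 93 without KO replicate 1, 2 or 3. The share lower was then 22.4 to 33.4 times as large outside, and the share higher 3.08 to 4.98 times, highest without KO replicate 1. Partly overlapping peaks lay between both classes, at 2.20% lower and 0.279% higher.

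The same shift was seen without a threshold. All 3 KO values lay below all 3 WT values at 4.06% of inside and 16.1% of outside peaks, against 8.21% of all peaks. All 3 KO values lay above all 3 WT values at 8.03% of inside and 5.64% of outside peaks, against 7.3% of all peaks. At an unadjusted p under 0.05, 2675 inside peaks (2.14%) were lower and 5499 (4.41%) higher, so below the adjusted threshold inside peaks leaned upward. The background at that level was 6.75% lower and 4.07% higher. The median log2 fold change (KO over WT) was 0.054 over inside peaks and -0.043 over outside peaks. Outside peaks near a region were not below 0, with a median of 0.036 within 2 kb and 0.017 at 2 to 10 kb. The median was -0.25 for outside peaks at 10 to 50 kb and -0.39 at 50 kb or more. Precision was alike in both classes, with a median standard error of 0.23 inside and 0.23 outside.

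Library by library, the mean deposited value of inside peaks (log2 reads per peak, with distributions matched between libraries) was between 4.9998 and 5.0038 in the WT libraries and was 5.06, 5.04 and 5.05 in those of KO. Over outside peaks the WT libraries were at 5.00, 4.99 and 4.99 and the KO libraries at 4.88, 4.91 and 4.89. The KO libraries lay above the WT libraries inside and below them outside, with no overlap. Because distributions were matched over all peaks, a loss in one class raises the values of the other, and only the difference between the classes can be read.

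That difference, the median of inside peaks minus the median of outside peaks, was 0, 0 and 0 in WT replicates 1 to 3. In KO it was 0.21, 0.12 and 0.19. The mean was 0.17 ± 0.048 (SD, n = 3) in KO, a shift of 0.17 against WT with an exact two-sided permutation p of 0.1, the smallest that 3 against 3 libraries can give. The zeros in WT came from ties among whole read counts, and with class means in place of medians the difference of WT was 0.012 ± 0.0072 and that of KO 0.16 ± 0.028 (SD, n = 3).

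**Figure D2:**
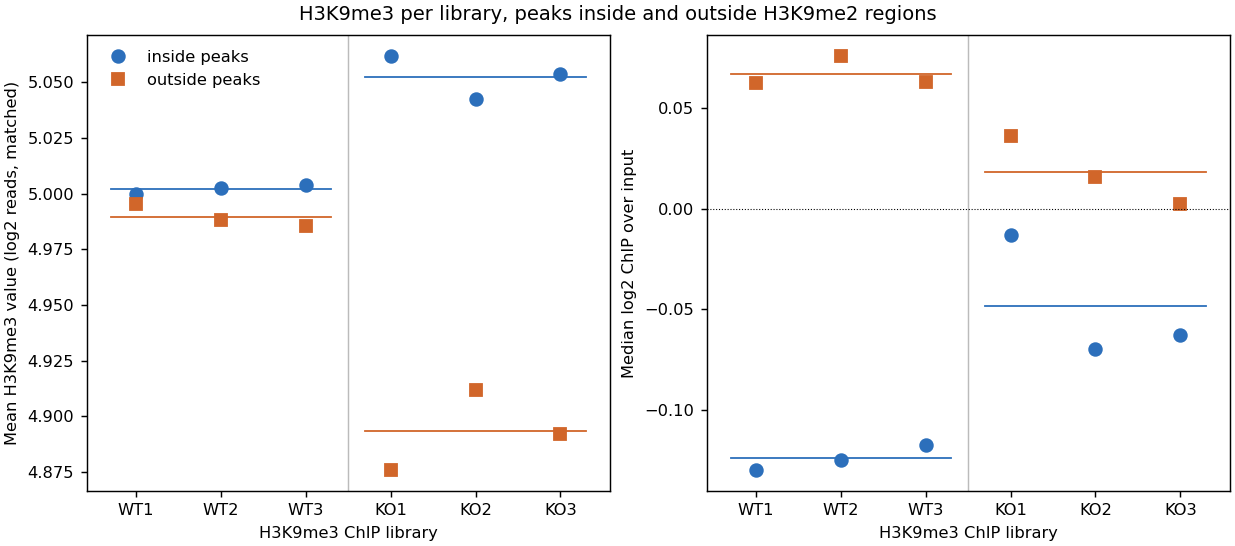
Left, mean H3K9me3 value (log2 reads, distributions matched) and, right, median log2 ratio of ChIP to the input of the same genotype, for inside peaks (circles) and outside peaks (squares) in each H3K9me3 library; lines are means of 3 libraries. Inside peaks are higher in the 3 KO than in the 3 WT libraries and outside peaks lower in both panels.

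The 2 classes differed in how far they stood above input. Each library was divided by the input of its genotype after scaling both to the reads in all peaks, so that 0 is the level of the pooled peaks and not of the genome. The median log2 ratio over inside peaks was -0.13, -0.12 and -0.12 in WT and -0.013, -0.070 and -0.063 in KO. Over outside peaks it was 0.063, 0.076 and 0.063 in WT and 0.036, 0.016 and 0.0023 in KO. Inside peaks were below outside peaks in 6 of 6 libraries, by 0.13 on average (exact two-sided sign-flip permutation p = 0.03125, the smallest for 6 libraries). Among peaks with 10 or more reads in each input the mean gap was -0.082, inside peaks were below in 5 of 6 libraries, all but KO replicate 1 at 0.0015, and the call was lost (exact permutation p = 0.0625). Over all peaks the gap, inside minus outside, averaged -0.19 ± 0.010 over the WT libraries and -0.067 ± 0.019 over those of KO (SD, n = 3). A level of at least 2-fold over input in WT was reached by 1144 inside peaks (0.917%) and 5402 outside peaks (8.00%). With 1 input per genotype, the error of the input is not known. The 3 libraries of a genotype share that input, so the 6 differences were not independent and the sign-flip p can be too small.

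The classes were also compared within bins. The ratio to input was averaged over all 6 libraries for this, so the KO values enter both the bins and the change. Among peaks whose mean log2 ratio to input over the 6 libraries lay between 0.25 and 0.5, 0.779% of 7954 inside and 10.5% of 7633 outside peaks were lower in KO. Between -0.25 and 0 the shares were 0.166% of 59770 and 4.65% of 24194. When outside peaks were weighted to the distribution of this ratio in inside peaks, the shift between the classes was 0.11, against 0.13 on the same scale without weights. The part of the level over input in the difference between the classes cannot be read from these bins. The share of lower peaks was also larger outside in every bin of width, repeat content, GC content and input reads. For peaks wider than 2700 and up to 5000 bp, 0.552% inside and 10.8% outside were lower, and for peaks with more than 100 and up to 150 input reads 0.621% and 13.2%. On chromosome 19, where inside peaks were lower most often, the shares were 0.988% and 15.5%, and on chromosome 9 they were 0.291% and 13.5%. On all 19 autosomes the share outside was the larger, and the median fold change of inside peaks was above that of outside peaks.

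**Figure D3:**
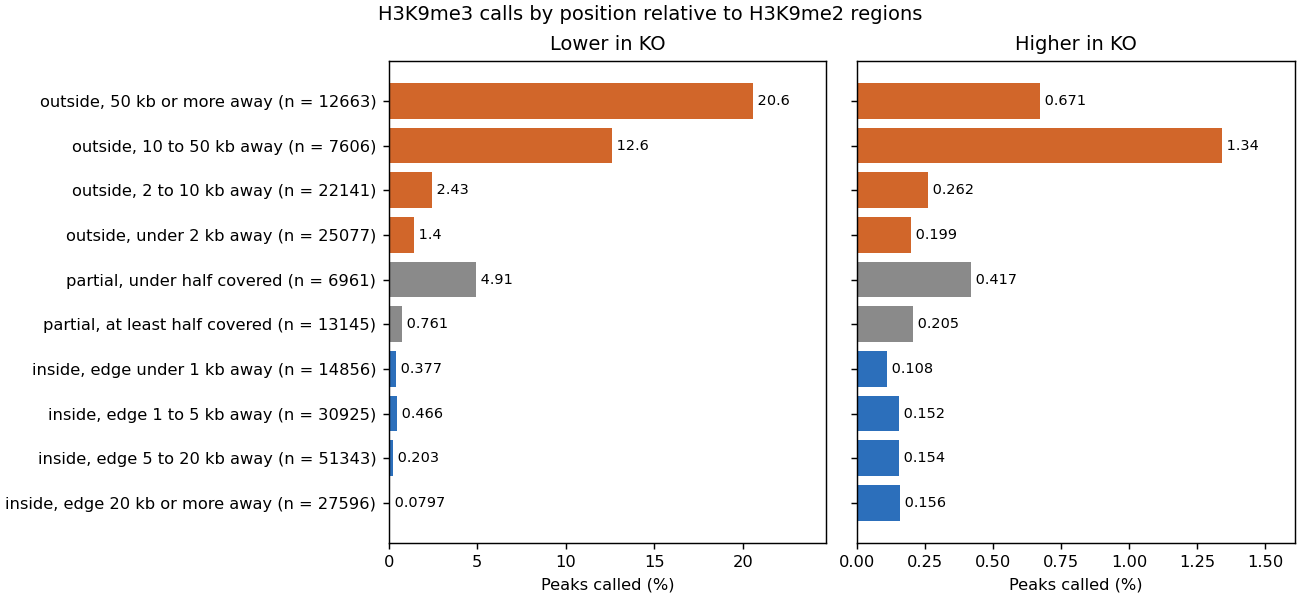
Percent of H3K9me3 peaks called lower (left) or higher (right) in KO, by distance from the nearest H3K9me2 region for outside peaks, by covered share for partly overlapping peaks and by distance from the region edge for inside peaks, with the number of peaks in parentheses. The share called lower is 20.6% at 50 kb or more from any region and 0.0797% for inside peaks 20 kb or more from the edge of their region.

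The share of lower peaks differed with position. Of the 12663 outside peaks at least 50 kb from any H3K9me2 region, 20.6% were lower in KO, and the share was 12.6% at 10 to 50 kb, 2.43% at 2 to 10 kb and 1.40% within 2 kb. The peaks that overlapped a region in part did not continue this order, with 342 of 6961 (4.91%) lower where under 50% of the peak was covered and 100 of 13145 (0.761%) where at least 50% was. Among inside peaks the share was 0.377% within 1 kb of the region edge, 0.466% at 1 to 5 kb, 0.203% at 5 to 20 kb and 0.0797% (22 of 27596) at 20 kb or more. The share of lower inside peaks was thus highest at 1 to 5 kb. The share of higher inside peaks was 0.108%, 0.152%, 0.154% and 0.156% in the same 4 bins. Outside peaks far from H3K9me2 also stood further above input, with a median WT log2 ratio of 0.44 at 50 kb or more and -0.10 within 2 kb, while in the 4 inside bins it was between -0.14 and -0.12. The part of this level in the shares outside was not tested. Per library, the median deviation of peaks at least 50 kb away from their own mean over libraries was 0.30, 0.17 and 0.19 in WT and -0.29, -0.13 and -0.16 in KO. For inside peaks 20 kb or more from an edge it was 0.0032, -0.034 and -0.022 in WT and 0.051, 0.021 and 0.048 in KO. For outside peaks within 2 kb of a region it was -0.036, 0.018 and 0.0084 in WT and 0.031, 0.025 and 0.018 in KO, with overlapping groups.

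Hosts with more inside peaks had a smaller share of lower ones. When the inside peak was the only one of its host, 146 of 5530 (2.64%) were lower in KO, and these supplied 146 of the 326 lower calls. The share was 0.608% in hosts with 2 to 4 inside peaks, 0.135% with 5 to 9, 0.0374% with 10 to 19 and 0.0232% with 20 to 49. Lone inside peaks also stood higher over input, with a median WT log2 ratio of -0.049. It was -0.11 in hosts with 2 to 4 and -0.14 to -0.13 in those with 5 or more. The part of this level in the shares was not tested. In the 47 hosts with 50 or more, 0 of 2963 inside peaks were lower and 5 (0.169%) were higher in the limma fit. Over all inside peaks the share higher was 0.148%. At an unadjusted p under 0.05 these hosts had 32 lower (1.08%) and 200 higher (6.75%), against 2.14% and 4.41% of all inside peaks, and edgeR and DESeq2 on recovered reads both called 0 lower. Of higher peaks edgeR called 2 and DESeq2 0. Lone inside peaks were lower in every KO than in every WT library, with a median deviation from the mean over libraries of 0.044, 0.027 and 0.035 in WT and -0.0034, -0.013 and -0.0082 in KO (exact two-sided permutation p = 0.1, the smallest possible). Inside peaks of hosts with 20 or more were higher in every KO library, at -0.0083, -0.034 and -0.025 in WT and 0.051, 0.033 and 0.049 in KO (exact two-sided permutation p = 0.1).

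**Figure D4:**
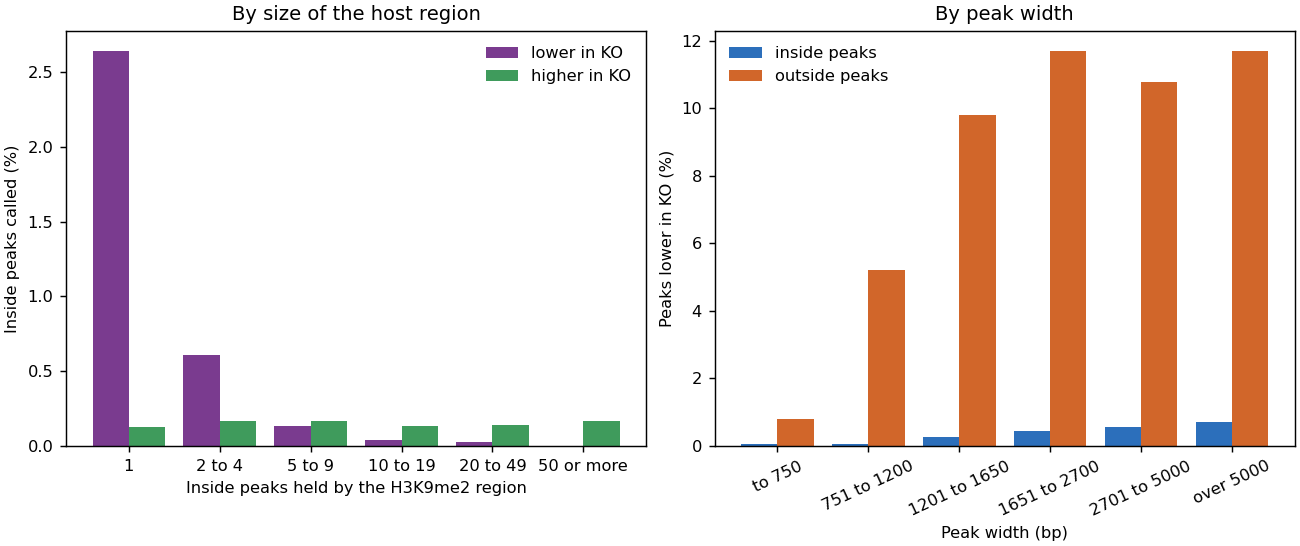
Left, percent of inside peaks lower or higher in KO by the number of inside peaks their H3K9me2 region holds; right, percent of inside and outside peaks lower in KO by peak width in bp. Lower calls fall from 2.64% for lone inside peaks to 0 in hosts with 50 or more, and in every width bin fewer inside than outside peaks are lower.

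Lower calls inside H3K9me2 regions were scattered. The 326 lower peaks lay in 317 hosts, of which 9 held 2 and none held more. They lost a median of 0.69 on the log2 scale, against 0.85 for lower outside peaks. Their median WT ratio to input was 0.41 on the log2 scale and their KO ratio -0.31, so in WT they were among the stronger inside peaks. The values that called them enter these ratios, which are a description.

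The lower inside peak of smallest p lay 1717 bp upstream of the predicted gene Gm28347 on chromosome 19 (11028601 to 11033700, GRCm38). Its values were 7.82, 7.86 and 7.89 in WT and 6.66, 7.12 and 6.96 in KO, on the matched log2 scale. The KO libraries were all lower, with KO replicate 1 lowest, a 1.92-fold loss (log2 fold change -0.94 ± 0.11 SE, limma adjusted p = 3.50e-08). Gm39132 on chromosome 8 held a peak at 7.30, 6.95 and 7.03 in WT and 6.38, 6.22 and 6.10 in KO (log2 fold change -0.86 ± 0.13 SE, adjusted p = 9.17e-06). In 1600002D24Rik on chromosome 16, 94.1% of the peak was repeat-masked, and values fell from 6.65, 6.46 and 6.36 to 5.46, 5.71 and 5.43 (log2 fold change -0.96, adjusted p = 2.84e-05). All 3 windows are those printed above with repeat-masked bases throughout.

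The largest loss among the 10 named lower peaks was in an intron of Fhit, a dinucleotide hydrolase gene that spans a common fragile site. It read 5.85, 5.96 and 5.91 in WT and 4.06, 5.10 and 4.66 in KO, a 2.46-fold loss (log2 fold change -1.30 ± 0.21 SE, adjusted p = 3.36e-05). The spread in KO was wide (SD 0.52), yet no KO value reached the WT range. Fhit had 47 inside peaks in 19 hosts with a median log2 fold change of -0.044, and this was the only one called.

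A peak in Boll, an RNA-binding protein of male germ cells, was 98.7% repeat-masked. It went from 6.53, 6.48 and 6.59 in WT to 5.51, 5.82 and 5.55 in KO (log2 fold change -0.91). A peak in Cyp2c67, a cytochrome P450 gene, went from 6.25, 6.46 and 6.30 to 5.41, 5.50 and 5.25 (log2 fold change -0.94). Upstream of Fam126a, which encodes hyccin of a membrane lipid kinase complex, values of 6.49, 6.12 and 6.52 fell to 5.20, 5.14 and 5.70. The groups did not overlap in any of these, as the rule for naming required. The other named lower peaks, at AC136640.1, Gm34816 and Gm20125, fell by 0.66 to 0.98 on the log2 scale. In 9 of the 10 the named peak was the only inside peak of its host, and the host was 5400 to 21750 bp wide.

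One gene outside this rule had 3 lower inside peaks, Chd1, a chromatin remodeler of active genes, and it was picked after its values were seen. Its 11 inside peaks lay in 9 hosts and had a median log2 fold change of -0.47. AC136640.1, Fam184b and Gm31135 had 2 each.

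Higher calls were fewer, and some shared a host. The 185 higher inside peaks lay in 165 hosts, 11 of which held 2 or more and together 31 of the peaks. No host held both a lower and a higher inside peak. Higher peaks gained a median of 0.73 on the log2 scale. In WT they stood below the pooled peaks, with a median log2 ratio to input of -0.49, and in KO at 0.16.

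**Figure D5:**
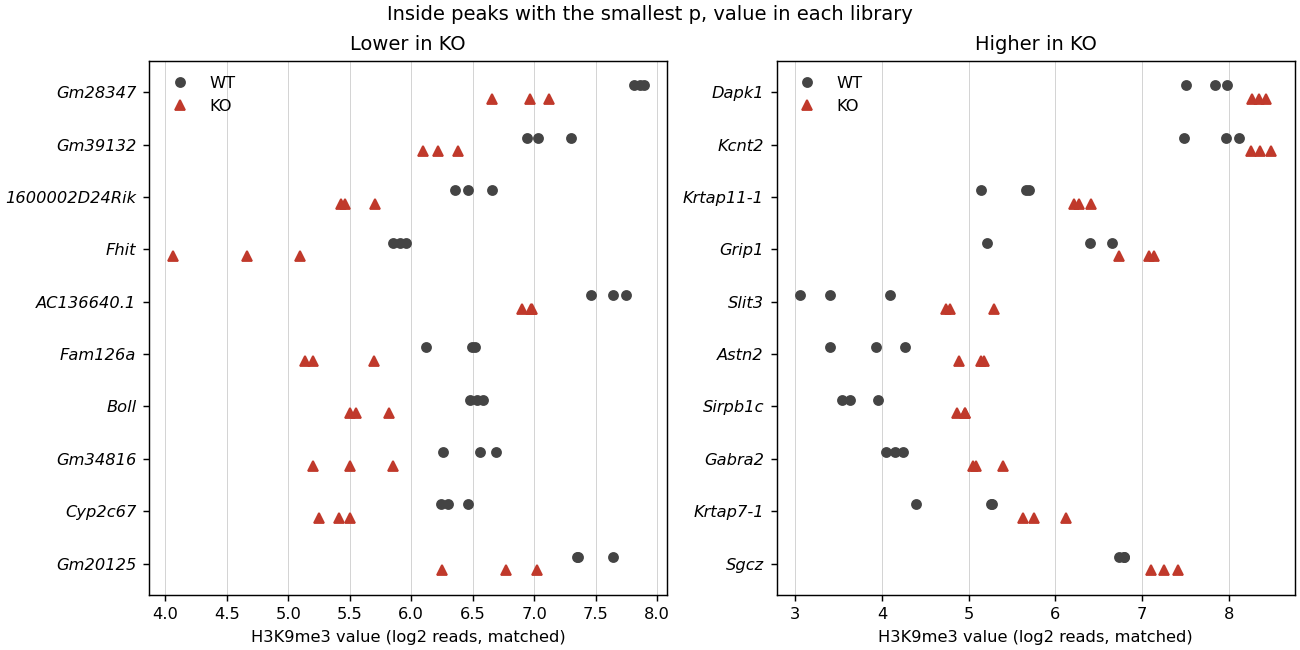
H3K9me3 value (log2 reads, distributions matched) of the 10 lower and the 10 higher named inside peaks in each library, WT as circles and KO as triangles. In every row the 3 KO libraries lie on one side of the 3 WT libraries, as the rule for naming required; the lower peaks change by 1.58-fold to 2.46-fold and the higher by 1.40-fold to 2.67-fold.

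Dapk1, a death-associated protein kinase, had the most higher inside peaks, 7 of 19. The widest, an intronic peak of 11700 bp on chromosome 13 (60646951 to 60658650), read 7.98, 7.84 and 7.51 in WT and 8.35, 8.27 and 8.43 in KO (log2 fold change 0.57 ± 0.098 SE, adjusted p = 7.10e-05). The gain was 1.49-fold, with all KO libraries above all WT libraries. The 9 other inside peaks of this host all had positive log2 fold changes, from 0.44 to 1.09, and 4 of them were called. Another Dapk1 host held 8 inside peaks, of which 2 were higher.

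The keratin-associated protein genes, which encode hair shaft proteins, lay near another group of higher peaks, on chromosome 16. The peak 2776 bp upstream of Krtap11-1 read 5.66, 5.69 and 5.14 in WT and 6.28, 6.22 and 6.41 in KO (log2 fold change 0.80 ± 0.17 SE, adjusted p = 0.00126). Its host held 18 inside peaks, of which 4 were higher, and the 17 others had log2 fold changes from 0.29 to 1.13. Over an exon of Krtap7-1 the values were 5.27, 5.26 and 4.39 in WT and 5.76, 5.63 and 6.12 in KO (log2 fold change 0.86, adjusted p = 0.00762). WT replicate 3 was low at both peaks. Without it the Krtap7-1 peak changed by 0.57 (limma adjusted p = 0.196) and without KO replicate 3 by 0.72 (adjusted p = 0.124).

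Grip1, a scaffold protein of glutamate receptors, had 6 higher peaks among 8 inside peaks, which were only 8.60% of its 93 H3K9me3 peaks. Its named peak read 6.40, 6.65 and 5.21 in WT and 6.74, 7.08 and 7.14 in KO (log2 fold change 0.90 ± 0.19 SE, adjusted p = 0.00134). WT replicate 3 was again low, and without it the change was 0.46 (limma adjusted p = 0.112). St6galnac3, a sialyltransferase, had 4 higher peaks of 34. Higher outside peaks were also most numerous on the chromosomes of Grip1, Dapk1 and the Krtap genes (10, 13 and 16), at 59, 52 and 41 of 295.

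The other named higher peaks were each the only called peak of their host. In Slit3, an axon guidance ligand, values rose from 4.09, 3.40 and 3.06 to 4.74, 4.78 and 5.29, a 2.67-fold gain (log2 fold change 1.42 ± 0.30 SE, adjusted p = 0.00173). In Astn2, an astrotactin of migrating neurons, they rose from 3.93, 3.40 and 4.26 to 4.89, 5.14 and 5.18. The 41 other inside peaks of that host had log2 fold changes of -0.47 to 0.57 with a median of 0.098. A peak over a start site of Sgcz, a sarcoglycan, rose from 6.74, 6.79 and 6.79 to 7.42, 7.26 and 7.10 (log2 fold change 0.49, adjusted p = 0.00778). Peaks in the potassium channel gene Kcnt2, the GABA receptor subunit gene Gabra2 and the signal-regulatory protein gene Sirpb1c rose by 0.51, 1.03 and 1.22. For Kcnt2 the call was lost without WT replicate 2 (0.32, limma adjusted p = 0.0828). For Gabra2 it was lost without KO replicate 2, for Sgcz without KO replicate 1 and for Slit3 without KO replicate 3.

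The named higher calls depended on the tool. DESeq2 on recovered reads kept the call of all 10 named lower peaks. Of the 10 higher ones it kept 2, at Dapk1 and Krtap11-1, lost 6 and gave no adjusted p for Slit3 and Sirpb1c. Adjusted p in DESeq2 was 0.0702 at Astn2, 0.0937 at Gabra2, 0.101 at Kcnt2, 0.126 at Sgcz, 0.134 at Krtap7-1 and 0.972 at Grip1. All 10 higher peaks also had more input signal in KO than in WT after scaling, as did 5 of the 10 lower peaks. Over all inside peaks called higher the median input log2 ratio of KO over WT was 0.049. It was 0.025 over those called lower and -0.0083 over all inside peaks. At Kcnt2 the input differed by 0.42 on the log2 scale, and the ratio of ChIP to input went from -0.41 to -0.34. At Gabra2 the input differed by 0.56, with ratios of -0.43 and 0.010, and at Astn2 by 0.72, with ratios of -0.63 and -0.18. The ratio to input changed in the direction of the call at all 20 peaks, and the part of the input in these changes was not tested. The peaks were named by the ChIP values that enter this ratio, so its direction was largely set by that choice.

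The 5 inside peaks with the highest WT ratio to input had no gene within 5 kb. They were chosen by that ratio, so their WT values are a description. Their WT ratios were 1.45 to 1.85 on the log2 scale and 45.4% to 97.2% of their bases were repeat-masked. Their KO ratios were -0.22 to 1.31. At all 5 the scaled KO input was above the WT input, by 0.31 to 1.21 on the log2 scale. The first, on chromosome 14 (24415801 to 24418200), read 6.42, 5.96 and 6.21 in WT and 6.22, 5.84 and 5.67 in KO. Its ratio rested on 17 reads in the WT input and 35 in the KO input. On the matched scale the 5 peaks had log2 fold changes of -0.49 to 0.13 and none passed the threshold (limma adjusted p from 0.168 to 0.852).

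Few genes of the lists chosen for this tissue had an H3K9me3 peak within 5 kb, and fewer an inside peak. None of the 25 genes for H3K9 methylation machinery and none of the 5 genes that the study names for gained H3K9me3 had an inside peak, and the 6 and 5 of them with any peak had 8 and 39 outside peaks. The study chose the latter list on these samples. Of its 17 upregulated genes 8 had a peak and only Tlr4, a receptor for bacterial lipopolysaccharide, had inside peaks, 28 of the 55 peaks of the list (50.9%). Those 28, in 2 hosts, had a median log2 fold change of -0.18 and ranged from -0.59 to 0.50. All 3 KO libraries lay below all WT libraries at 4 of them (14.3%, against 4.06% of all inside peaks) and above at 0. In the limma fit 0 were called (lowest adjusted p = 0.0681), with 5 lower (17.9%) at an unadjusted p under 0.05, against 2.14% of all inside peaks. On recovered reads edgeR called 1 lower and DESeq2 0. Of 20 crypt and epithelial genes 7 had a peak, and only Dclk1, a tuft cell marker, had inside peaks. It had 11 of the 20 peaks of the list (55.0%), with log2 fold changes of -0.38 to 0.25. Of 12 immune genes 5 had a peak, and Adgre1 held the 5 inside peaks among 10. Of 12 stromal genes 3 had a peak, and Elavl4, a gene of enteric neurons, held the 30 inside peaks among 37 (81.1%). The share of peaks inside in these lists, with so few genes, is that of single genes. These lists measure mark positions and not the cells present.

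In the neuronal list all 20 genes had a peak and 18 had inside peaks, 2684 of 3670 H3K9me3 peaks (73.1%), with a median log2 fold change of 0.076. Called were 2 lower, in Fhit and in Macrod2, and 1 higher, in Cntnap2. This share of lower calls, 0.0745%, compares with 0.261% of all inside peaks. The Cntnap2 peak read 5.90, 6.18 and 6.16 in WT and 6.72, 6.50 and 6.51 in KO (log2 fold change 0.49, adjusted p = 0.0401). The Macrod2 peak read 5.14, 5.05 and 5.46 in WT and 4.57, 4.78 and 3.77 in KO (log2 fold change -0.84, adjusted p = 0.0496), and without KO replicate 3 the change was -0.54 (limma adjusted p = 0.406). The Cntnap2 call was lost whichever of the 6 libraries was left out, with adjusted p from 0.0537 to 0.249 in limma, and the Macrod2 call without WT replicate 1, 2 or 3 or KO replicate 3. DESeq2 on recovered reads made neither call (adjusted p = 0.391 and 0.403).

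Gene families differed in how many of their peaks were inside. Their shares of lower inside peaks are to be read against 0.261% over all inside peaks. Those of lower outside peaks are to be read against 6.61% over all outside peaks. Olfactory receptor genes had 1747 inside peaks of 2665 (65.6%), of which 7 (0.401%) were lower and 1 higher, against 18 lower of 660 outside (2.73%). Vomeronasal receptor genes had 757 of 1250 (60.6%), of which 3 (0.396%) were lower, against 3 of 335 outside (0.896%). Zinc finger genes of the Zfp group had 284 of 884 (32.1%). Of those 284, 1 was lower (0.352%), at Zfp800, while 54 of 493 outside peaks (11.0%) were. Solute carrier genes had 0 lower of 271 inside peaks in the limma fit (7, or 2.58%, lower and 11, or 4.06%, higher at an unadjusted p under 0.05, against 2.14% and 4.41% of all inside peaks, and 0 lower by edgeR or DESeq2 on recovered reads), and 49 lower of 234 outside (20.9%). Cytochrome P450 genes had 2 lower of 74 inside (2.70%), at Cyp2c67 and Cyp2j7-ps1, and 19 of 71 outside (26.8%). The paralogs in these families share sequence, and reads that map to several copies were filtered out.

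H3K9me2 itself showed almost no calls. Of the 21104 host regions 1 was lower and 0 were higher in KO (edgeR quasi-likelihood test, adjusted p under 0.05), against 0.00212% and 0% of all regions. At an unadjusted p under 0.05, 231 hosts (1.09%) were lower and 269 (1.27%) higher, and over all regions 1.52% and 1.6%. DESeq2 called 2 hosts lower and 0 higher. The median log2 fold change of hosts was -0.00060, with an interquartile range of -0.043 to 0.044. The 317 hosts with a lower inside peak had a median of -0.0038 and the 165 with a higher one -0.0025. Relative to hosts with no called peak, the first moved by -0.0078 between genotypes (exact two-sided permutation p = 0.7) and the second by -0.0032 (p = 0.8 in the same exact test). Across the 124720 inside peaks, the H3K9me3 fold change and the H3K9me2 fold change of the host had Pearson r = -0.034 and Spearman rho = -0.036. Peaks of 1 host share its H3K9me2 value in this description. A host was far wider than an inside peak (median 19350 bp against 1350 bp), so a local H3K9me2 change at a peak could be missed.

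The single called host lay on chromosome 18 (3810001 to 3859050) near Gm24632 and held 5 inside peaks. Its H3K9me2 level in RPM (reads scaled to library size by TMM) was 62.8, 58.04 and 60.8 in WT and 46.3, 47.1 and 47.5 in KO, without overlap (log2 fold change -0.37 ± 0.053 SE, edgeR adjusted p = 0.0284). The call held in 1 of 6 fits that each left out a library, the one without WT replicate 1. The H3K9me3 log2 fold changes of its inside peaks ran from -0.87 to 0.35.

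At the hosts of the named peaks H3K9me2 did not pass the threshold. The Dapk1 host was at 49.5, 40.4 and 39.2 RPM in WT and 44.0, 43.3 and 41.5 in KO, with overlapping groups. The Krtap11-1 host was at 81.85, 67.01 and 69.83 RPM in WT and 64.21, 63.33 and 57.004 in KO (log2 fold change -0.25 ± 0.066 SE, edgeR unadjusted p = 0.000976, adjusted p = 1.00), all KO libraries lying below all WT libraries. The Krtap7-1 host changed by -0.22 (unadjusted p = 0.0178). The 1600002D24Rik host, whose H3K9me3 peak fell, changed by 0.48 in H3K9me2 (unadjusted p = 0.00992) on 62 to 191 reads per library. Over the hosts of all 20 named peaks the H3K9me2 fold change had the opposite sign to that of the H3K9me3 peak in 13 and the same sign in 7.

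Host regions stood close to other H3K9me2 regions in their level over input. Hosts held 80.6% to 81.2% of the H3K9me2 reads in regions, and 81.1% in both inputs. The median log2 ratio to input was -0.041 to -0.0011 over hosts in the 6 libraries and 0.0093 to 0.077 over regions that touched no H3K9me3 peak. The difference was negative in 6 of 6 libraries, -0.049 on average (exact two-sided sign-flip permutation p = 0.03125). It was 0.0025 with 5 reads added in place of 1 (p = 0.906, exact sign-flip permutation test). With the other regions weighted to the widths of hosts it was -0.0088 (p = 0.719 in the same exact test), so it depended on these settings. Libraries of a genotype share 1 input here too, so the 6 differences were not independent.

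The 5 hosts with the most inside peaks had small changes in both marks. The widest, over Opcml on chromosome 9 (28480951 to 28872000), held 122 inside peaks over 47.6% of its bases, and their median H3K9me3 fold change was 0.15 on the log2 scale. Its H3K9me2 was 572, 538 and 544 RPM in WT and 536, 548 and 527 in KO (log2 fold change -0.039 ± 0.039 SE). The Nrxn3 host on chromosome 12 held 104 inside peaks over 69.5% of its bases, with a median change of 0.091, and its H3K9me2 changed by -0.017. The hosts at the predicted gene Gm42844 (87 inside peaks), at Bmper, which encodes a BMP-binding protein (86), and at the cation channel gene Trpm3 (85) had median H3K9me3 changes of 0.10, 0.069 and 0.061. Of the inside peaks in these 5 hosts 0 were lower in the limma fit and 1 was higher, at Gm42844, with 8 lower (1.65%) and 34 higher (7.02%) at an unadjusted p under 0.05, against 2.14% and 4.41% of all inside peaks, and on recovered reads edgeR and DESeq2 called 0 in either direction. All the H3K9me3 medians were positive, as was the median over all inside peaks on this matched scale.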

How the data were processed

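The study trimmed paired-end reads with Trim Galore 0.4.4, mapped them to GRCm38 with Bowtie2 2.3.2 and removed duplicates and reads of low mapping quality in SeqMonk. MACS peaks were called jointly, with the ChIP libraries of a mark pooled and both inputs as background. The H3K9me3 values deposited by the authors are log2 read counts per peak with matched distributions over the ChIP libraries (inputs unmatched), and the H3K9me2 signal values deposited by the authors are mean read counts per MACS peak in a region, which the number of peaks (179733 in all) turned into whole counts. This removes any global shift of H3K9me3. The short counts table deposited by the authors served as a check, their own edgeR comparison was not used, and 8 columns of standard deviations were left out. Groups came from the sample titles.

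H3K9me3 was fitted over all peaks with limma 3.58.1 (trend) and H3K9me2 over all regions with edgeR 4.0.16 (quasi-likelihood, TMM), with genotype as the single term, two-sided, at a Benjamini-Hochberg adjusted p under 0.05. Class values per library were compared by exact permutation. H3K9me3 reads were recovered from the ranks of the distinct values, with at least 99.65% of peaks off by less than 0.002 (log2), with counts above 199 to 325 reads extrapolated at 1988 peaks. Fits were tested on simulated data. ChIP over input used 1 added read. Repeat masking, GC and exons came from GRCm38.p6 and genes within 5 kb from the deposited annotation. Named were the 10 lower and 10 higher inside peaks of smallest p near a gene (1 per gene, groups not overlapping), called peaks at listed genes, the 5 hosts with most inside peaks, and the 5 inside peaks highest over input in WT with at least 40 input reads. The sequence of 1 further peak is not reported here. Members, lists and rules were chosen with earlier results of these data known. Alternatives were recomputed with DESeq2 1.42.0, other filters, other membership, the replicate number as a block and libraries left out in turn.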

Additional observations from a re-analysis of the deposited data

How the results depend on the processing

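The number of inside peaks lower in KO was 326 and the number higher 185. Without a mean-variance trend limma called 0 and 0. With edgeR on recovered counts, also chosen after seeing the data, 427 were lower and 204 higher. DESeq2 on recovered counts, an alternative chosen after seeing the data, called 100 and 11, with 63.8% of inside calls lower in the reported fit and 90.1% under DESeq2. An adjusted p under 0.01 gave 157 and 39, and a log2 fold change of at least 1 gave 38 and 36. Counting any overlap as inside gave 768 lower. Leaving out 1 library gave 173 to 295 lower and 93 to 180 higher, with 177, 215 and 173 lower without WT replicate 1, 2 or 3 and 120, 102, 120 and 93 higher without WT replicate 3 or KO replicate 1, 2 or 3. In each of these settings the share of lower peaks was larger outside than inside (without the trend 84 outside and 0 inside). Where inside peaks were called, the ratio ran from 12.5 with any overlap to 66.9 at the minimum log2 change of 1, and for higher peaks from 2.63 with any overlap to 17.6 under DESeq2.

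The difference over input between inside and outside peaks was -0.082 (exact permutation p = 0.0625) among peaks with 10 or more reads in each input, and -0.15 to -0.11 with 1 library left out, where 0.0625 is the smallest p that 5 libraries allow. For H3K9me2 the difference between hosts and other regions was 0.0025 with 5 reads added, which reversed it, -0.021 (p = 0.375, exact permutation test) with 10 or more input reads, -0.0088 with widths weighted, and -0.057 to -0.036 with 1 library left out. The 1 lower host became 0 at an adjusted p under 0.01, 2 under DESeq2 and 0 to 2 with 1 library left out. Libraries of a genotype share 1 input, which the exact permutation tests over input do not allow for.

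Deviations from the group mean of same-numbered libraries correlated by -0.0040, 0.014 and -0.0067 over inside peaks and by 0.28, -0.014 and 0.18 over host regions, and 2 and 4 of 6 libraries were closest to their own number, so the numbers were not taken as pairs. With the replicate number as a block, 320 inside peaks were lower and 182 higher, the shift between the classes stayed at 0.17 (exact permutation p = 0.25, the smallest for 3 pairs), and H3K9me2 had 7 lower and 2 higher hosts. For the 22 named peaks 192 of 240 alternative fits kept the call. All 240 kept the direction, but limma fits on all 6 libraries give the same fold change by construction. For the 20 peaks named with groups not overlapping, leaving out a library could not change the direction either. All 22 calls were lost without the trend. DESeq2 lost 6 of the 10 higher and 0 of the 10 lower peaks, with no value for 2. The 2 further list peaks, at Cntnap2 and Macrod2, were lost under DESeq2 too, and Macrod2 also with the block (limma adjusted p = 0.0509). A median of 23 to 37 reads per inside peak and library limits what small changes can be called, and intervals for single peaks cover only the spread between 3 libraries.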
